A study of Mus musculus with 8 samples.

Results

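The mitochondrial carrier family (Slc25) consists of the proteins that move metabolites across the inner mitochondrial membrane, and it includes the uncoupling proteins (Ucp). Its members were taken as the genes whose symbol in the array annotation begins with Slc25a and a digit or is Ucp1, Ucp2 or Ucp3, among probe sets annotated to 1 gene. This gave 41 genes, each with 1 probe set, out of 14860 genes so named and 16755 probe sets in all. RNA had been measured on 8 arrays of the tibialis anterior, a fast-twitch muscle at the front of the shin. On 4 arrays the muscle was a right tibialis anterior that had received pCMV-FLAG-Gadd45a, a plasmid encoding tagged Gadd45a, and on the other 4 it was a left tibialis anterior that had received the empty plasmid pcDNA3. All muscles came from 8-week-old male mice with a muscle-specific ATF4 knockout (ATF4 mKO) and were taken on day 7 after transfection, so the control muscles lacked muscle ATF4 too. The labels name neither the Cre driver nor the share of fibres that took up plasmid. Plasmid and body side cannot be told apart, nor can Gadd45a from the making of any tagged protein. The labels state neither whether the arrays within a group stand for different animals nor whether a left and a right muscle of the same sample number came from 1 mouse. The fit took all arrays as independent, and each p-value reflects the spread among these arrays only, part of which may be technical.

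Carriers share a common fold of similar repeats in the membrane, and each member exchanges or imports particular substrates. In muscle the ADP/ATP and phosphate carriers feed ATP synthesis and export its product, the aspartate/glutamate and oxoglutarate carriers run the malate-aspartate shuttle that brings cytosolic reducing equivalents into mitochondria, and the acylcarnitine carrier brings in fatty acids. Uncoupling protein 1 lets protons leak back in brown fat, while uncoupling protein 3 is the form typical of skeletal muscle.

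Signals below are log2 intensities, and fold changes are log2 differences, Gadd45a plasmid minus control plasmid, with the moderated standard error (SE). A gene was called changed at an adjusted p under 0.05 in limma, with Benjamini-Hochberg adjustment over all 16755 probe sets. Gadd45a read 10.35, 10.18, 10.46 and 10.34 with Gadd45a plasmid, against 7.85, 7.75, 7.66 and 7.80 with control plasmid, in the direction the labels give (log2 fold change 2.57, SE 0.08, adjusted p = 7.74e-07). Atf4, the gene deleted in the fibres of both groups, read 7.35, 7.50, 7.52 and 7.59 with Gadd45a plasmid, against 6.84, 7.03, 6.93 and 7.02 with control plasmid (log2 fold change 0.54, SE 0.08, adjusted p = 0.00136). With no array of wild-type muscle analysed here, and without the position of the probes relative to the deleted part, this signal does not check the knockout. Array medians ran from 5.85 to 5.92, and correlations between arrays from 0.979 to 0.989 within groups and from 0.963 to 0.975 between them. Markers of muscle fibres moved by unequal amounts. Of the 6 measured, Acta1, Tnnt3, Mylpf and Pvalb did not pass, and the myoglobin gene Mb (-0.78) and the creatine kinase gene Ckm (-0.51) fell. Pvalb was lower without overlap (-0.21, adjusted p = 0.0558), and 5 of the 6 lay below 0. The summed linear intensity of the 6 was 18620 to 19210 with Gadd45a plasmid and 19090 to 21480 with control plasmid. In whole muscle, fewer cells of a type and less RNA per cell cannot be told apart.

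Of the 41 carrier genes 10 changed (24.4%), a share close to the 21.1% of all probe sets that changed. The direction differed more. With Gadd45a plasmid 8 members were lower (19.5%), where 10.3% of all probe sets were called lower, and 2 were higher (4.88%), where 10.8% of all probe sets were called higher. The members that fell were Slc25a12, Ucp3, Slc25a11, Slc25a4, Slc25a27, Slc25a28, Slc25a3 and Ucp1, and those that rose were Slc25a24 and Slc25a40. The median log2 fold change of the 41 members was -0.17, beside -0.06 for all probe sets, and 31 members lay below 0 (75.6%), beside 60.2% of all probe sets. With quantile normalization 28 members lay below 0, beside 53.6% of all probe sets, and with cyclic loess 28 members, beside 52% of all probe sets.

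**Figure D1:**
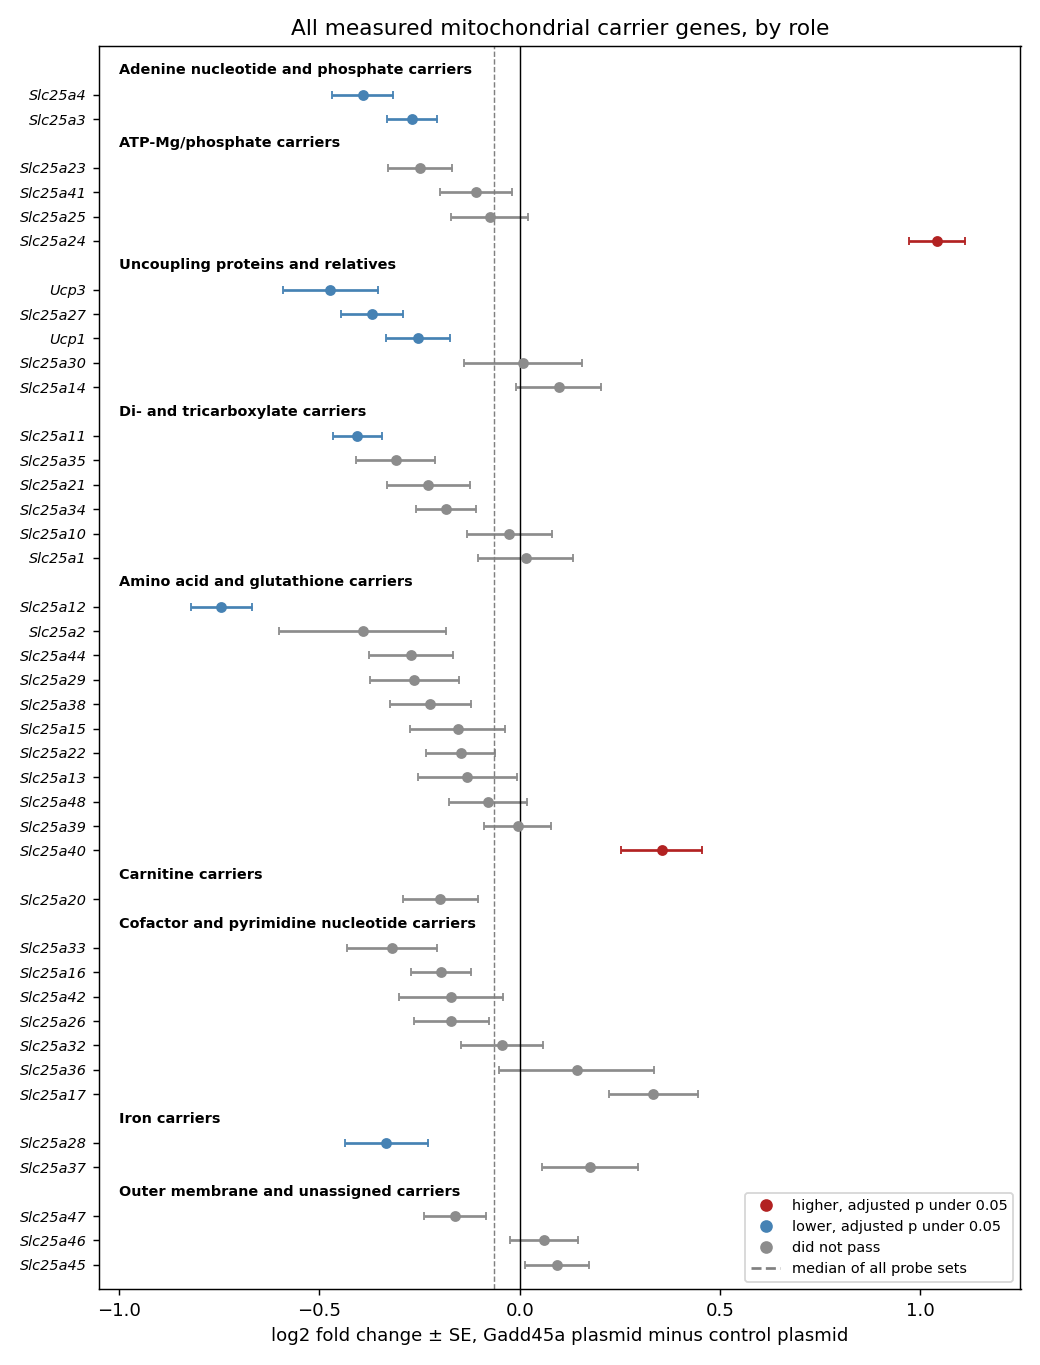
Log2 fold change ± SE (Gadd45a plasmid minus control plasmid, horizontal axis) of each of the 41 measured carrier genes, grouped by role; blue points fell, red points rose and grey points did not pass an adjusted p of 0.05. The dashed line is the median of all probe sets (-0.06), and the points reach from -0.74 for Slc25a12 to 1.04 for Slc25a24.

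The carriers of the malate-aspartate shuttle included the member that fell most. Slc25a12 encodes aralar, the calcium-regulated aspartate/glutamate carrier of muscle and brain. It read 8.61, 8.52, 8.68 and 8.52 with Gadd45a plasmid, against 9.19, 9.32, 9.37 and 9.42 with control plasmid. Every Gadd45a array lay below every control array, by at least 0.51 log2 units. On the log2 scale the change was -0.74 (SE 0.08, adjusted p = 0.000218), and the linear signal fell by 40.3%. Slc25a11 encodes the oxoglutarate carrier, which passes malate in and oxoglutarate out. It read 8.37, 8.37, 8.40 and 8.34 with Gadd45a plasmid, against 8.85, 8.75, 8.71 and 8.79 with control plasmid, again without overlap (log2 fold change -0.41, SE 0.06, adjusted p = 0.00183). Calls were also examined in 12 leave-out fits, 8 without a single array and 4 without both arrays of a sample number, and both genes stayed called in every one. Their promoters are shown because no other fall in the family held in all 12. Each sequence gives the 250 bases before the annotated start in RefSeq, on the gene's strand, with capitals marking matches to the short motifs described further on; the windows are chr2:71367756-71368005 (minus strand) for Slc25a12 and chr11:70647040-70647289 (minus strand) for Slc25a11, in GRCm38.p6.
Slc25a12: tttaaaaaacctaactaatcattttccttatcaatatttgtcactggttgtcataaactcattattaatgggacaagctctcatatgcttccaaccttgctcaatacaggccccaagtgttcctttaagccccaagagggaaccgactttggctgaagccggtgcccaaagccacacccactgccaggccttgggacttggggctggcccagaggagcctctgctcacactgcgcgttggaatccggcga
Slc25a11: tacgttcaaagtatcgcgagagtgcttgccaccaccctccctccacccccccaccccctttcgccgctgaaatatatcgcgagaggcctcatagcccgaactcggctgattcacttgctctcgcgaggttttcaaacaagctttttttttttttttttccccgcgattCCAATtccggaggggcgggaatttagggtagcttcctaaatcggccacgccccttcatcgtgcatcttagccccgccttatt

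Slc25a13 encodes citrin, the aspartate/glutamate carrier typical of liver. It read 4.34, 4.21, 4.42 and 4.71 with Gadd45a plasmid, against 4.68, 4.72, 4.34 and 4.45 with control plasmid, and the groups overlapped (log2 fold change -0.13, SE 0.12, adjusted p = 0.464). The signal of Slc25a12 relative to that of Slc25a13, computed within each array, was 4.17 ± 0.23 log2 units with Gadd45a plasmid and 4.78 ± 0.26 with control plasmid (SD, n = 4 each), a difference of -0.61. Its exact two-sided permutation p was 0.0286, the smallest that the 70 labellings allow, and 0.0643 after adjustment over the 9 pairs compared. Slc25a13 was a dim probe set, on which small changes are compressed by the array processing.

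Enzymes of these shuttles were lower too. Of the 4 measured genes of the malate-aspartate and glycerol phosphate shuttles all 4 fell (beside 10.3% of all probe sets), with a median of -0.63. The cytosolic aspartate aminotransferase gene Got1 read 9.58, 9.38, 9.84 and 9.59 with Gadd45a plasmid, against 10.30, 10.47, 10.54 and 10.41 with control plasmid (log2 fold change -0.83, SE 0.10, adjusted p = 0.000596). Mitochondrial malate dehydrogenase, Mdh2, fell by 0.43 (SE 0.08), and the glycerol phosphate dehydrogenases Gpd2 and Gpd1 fell by 0.64 (SE 0.09) and 0.62 (SE 0.07). No overlap between groups was seen for any of these enzymes.

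Both measured carriers that serve ATP synthase fell (beside 10.3% of all probe sets). The ADP/ATP carriers Slc25a5 and Slc25a31 had no single-symbol probe set. Slc25a4 encodes the ADP/ATP carrier of heart and skeletal muscle, which exports ATP in exchange for ADP. It read 10.71, 10.66, 10.82 and 10.75 with Gadd45a plasmid, against 11.00, 11.19, 11.24 and 11.08 with control plasmid. The groups were separated, with a log2 fold change of -0.39 (SE 0.08, adjusted p = 0.00603), and the linear signal fell by 23.8%. Slc25a3, the phosphate carrier, read 9.54, 9.61, 9.62 and 9.56 with Gadd45a plasmid, against 9.82, 9.88, 9.91 and 9.79 with control plasmid. This smaller change was also without overlap (log2 fold change -0.27, SE 0.06, adjusted p = 0.0154). Slc25a3 lost its call in each of the 4 fits without a sample number, where the adjusted p reached 0.0763, and Slc25a4 lost its call without both arrays numbered 2 (adjusted p = 0.0547). The promoter of Slc25a4 is shown as that of the main ADP/ATP carrier of muscle and comes from the minus strand of chr8:46211063-46211312 (GRCm38.p6, 250 bases before the start).
Slc25a4: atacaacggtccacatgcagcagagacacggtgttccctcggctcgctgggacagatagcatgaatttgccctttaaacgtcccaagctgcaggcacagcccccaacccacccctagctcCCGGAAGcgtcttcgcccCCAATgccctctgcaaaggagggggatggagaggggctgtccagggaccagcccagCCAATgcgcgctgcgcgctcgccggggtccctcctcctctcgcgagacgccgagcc

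Creatine kinases and adenylate kinases pass on phosphate groups of ATP. Of 8 measured creatine kinase, adenylate kinase and creatine transport genes 5 fell (62.5%, beside 10.3% of all probe sets) and 0 rose. The median of the 8 was -0.31. The mitochondrial creatine kinase gene Ckmt2, whose product works beside the ADP/ATP carrier, read 9.58, 9.48, 9.77 and 9.39 with Gadd45a plasmid, against 10.08, 10.48, 10.40 and 10.17 with control plasmid (log2 fold change -0.73, SE 0.11, adjusted p = 0.00206). Cytosolic Ckm fell by 0.51 (SE 0.08), Ak1 by 0.37 (SE 0.09) and Ak3, the adenylate kinase of the mitochondrial matrix, by 0.29 (SE 0.06); the adenylate kinase calls were lost in 3 and 2 leave-out fits. The creatine transporter gene Slc6a8 fell by 0.25 (SE 0.07) and missed the threshold in 8 leave-out fits. Ckmt1, Ckb and Ak4 did not pass, with changes between -0.32 and 0.02.

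In the outer membrane, Vdac1, a pore through which carrier substrates reach the intermembrane space, read 10.21, 10.12, 10.30 and 10.29 with Gadd45a plasmid, against 10.62, 10.90, 10.91 and 10.99 with control plasmid (log2 fold change -0.62, SE 0.09, adjusted p = 0.00148). Vdac2 and Vdac3 did not pass. Of the 16 measured genes for other transporters of mitochondrial membranes 1 fell and 2 rose (18.8% changed, beside 21.1% of all probe sets). The calcium uptake regulator Micu2 rose by 0.40 (SE 0.09, missed in 3 leave-out fits). The carrier-like outer membrane protein Mtch1 rose by 0.28 (SE 0.08). Mtch1 overlapped between groups and was missed in 9 leave-out fits, with quantile normalization (adjusted p = 0.0666) and with cyclic loess (0.0866). Of 13 listed genes of the carrier import pathway 5 were measured, and 1 of these changed (20%, beside 21.1% of all probe sets). It was Timm8b, a small chaperone of the intermembrane space (-0.53, SE 0.14, adjusted p = 0.0289). Timm8b missed the threshold in 7 leave-out fits. The next largest change there, of the outer membrane receptor gene Tomm70a, did not pass (0.14, SE 0.08). Over all 37 measured genes in these lists of partners 13 fell and 3 rose (43.2% changed, beside 21.1% of all probe sets). Of the 37, 31 were at or above the median brightness of all probe sets, a range in which 30.3% of all probe sets changed. These lists were chosen with earlier results of these data known.

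**Figure D2:**
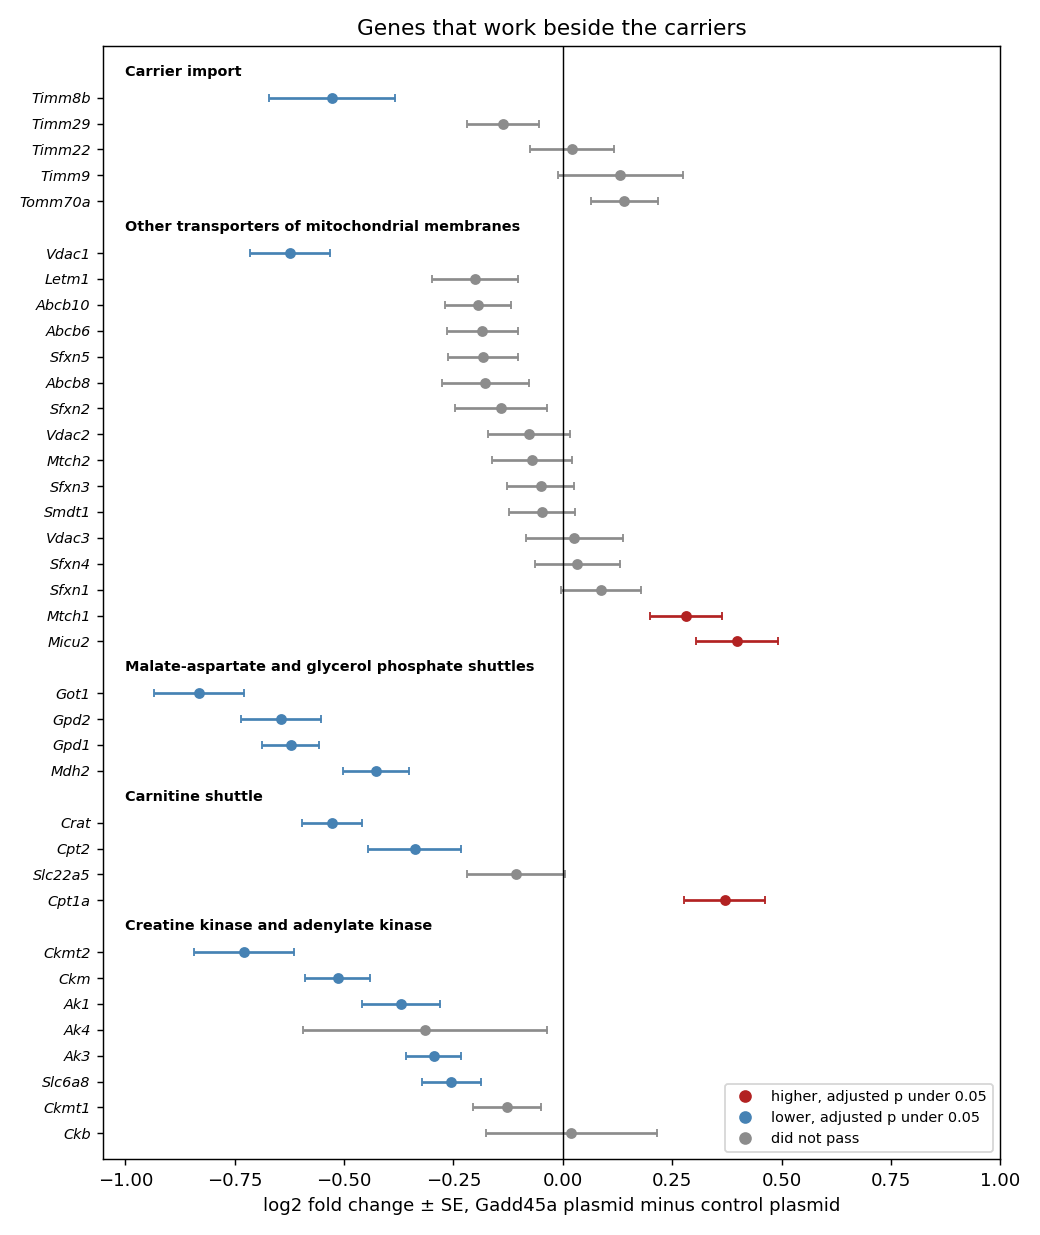
Log2 fold change ± SE (Gadd45a plasmid minus control plasmid, horizontal axis) of 37 measured genes that work beside the carriers, grouped by list; blue points fell, red points rose and grey points did not pass an adjusted p of 0.05. All 4 shuttle enzymes are blue, between -0.83 for Got1 and -0.43 for Mdh2.

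Of the 5 measured uncoupling proteins and relatives 3 fell (60%, beside 10.3% of all probe sets) and 0 rose. Ucp3, the uncoupling protein of skeletal muscle, read 6.88, 6.56, 6.77 and 6.91 with Gadd45a plasmid, against 7.22, 7.36, 6.97 and 7.46 with control plasmid. The groups nearly met but did not overlap, the lowest control array lying 0.06 log2 units above the highest Gadd45a array (log2 fold change -0.47, SE 0.12, adjusted p = 0.0212). The call was lost in 6 of the 12 leave-out fits, those without Gadd45a 2, control 2 or control 4 and those without both arrays numbered 1, 2 or 4. The adjusted p reached 0.114 without both arrays numbered 2, where the change was -0.36. Slc25a27, also named uncoupling protein 4 and known mainly from brain, read 7.19, 7.02, 7.28 and 7.11 with Gadd45a plasmid, against 7.57, 7.41, 7.52 and 7.57 with control plasmid. Its fall of 0.37 (SE 0.08, adjusted p = 0.00904) was without overlap and missed the threshold in 1 leave-out fit, that without both arrays numbered 4 (adjusted p = 0.0653).

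Ucp1, the uncoupling protein of brown fat, read 4.41, 4.35, 4.34 and 4.54 with Gadd45a plasmid, against 4.57, 4.81, 4.64 and 4.64 with control plasmid (log2 fold change -0.25, SE 0.08, adjusted p = 0.0488). The groups were separated by 0.03 log2 units, the probe set was dim, and the call held only in the leave-out fits without Gadd45a 4 or without control 1, with adjusted p up to 0.210 in the other 10. With quantile normalization the change was -0.14 (adjusted p = 0.297) and with cyclic loess -0.13 (adjusted p = 0.332). The call was also lost with median centring (adjusted p = 0.0775) and with trend and robust variance (0.0797). Adipocyte markers were lower in the same muscles, with 3 of 5 falling (range -0.73 to -0.21) and summed linear intensities of 347 to 377 with Gadd45a plasmid against 480 to 502 with control plasmid. Of 4 brown adipocyte markers, which include Ucp1 itself, Dio2 rose by 0.63 and Cidea and Elovl3 did not pass, with a summed intensity of 147 to 156 against 118 to 123. None of these markers was at 0, a value that this kind of array summary does not give, and the part of fat cells in the Ucp1 signal was not tested. The remaining relatives did not pass, and their groups overlapped. Slc25a14 read 5.91, 6.02, 6.05 and 6.40 with Gadd45a plasmid, against 6.07, 5.89, 6.04 and 5.99 with control plasmid (log2 fold change 0.10, SE 0.11). Slc25a30 read 5.59, 6.10, 6.14 and 6.23 with Gadd45a plasmid, against 5.98, 6.19, 6.11 and 5.76 with control plasmid (log2 fold change 0.01, SE 0.15).

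The largest change of the family was a rise. Slc25a24 encodes a calcium-regulated carrier that exchanges ATP-Mg for phosphate and so adjusts the adenine nucleotide pool of the matrix. It read 7.46, 7.44, 7.33 and 7.40 with Gadd45a plasmid, against 6.40, 6.24, 6.39 and 6.43 with control plasmid. Every Gadd45a array was above every control array by at least 0.90 log2 units, and the signal was 2.06-fold higher (log2 fold change 1.04, SE 0.07, adjusted p = 4.08e-05). Over the leave-out fits the change stayed between 0.99 and 1.07 and the adjusted p at or below 0.00172. Its promoter is printed as that of the member that rose most, from the plus strand of chr3:109122899-109123148 (GRCm38.p6, 250 bases before the start).
Slc25a24: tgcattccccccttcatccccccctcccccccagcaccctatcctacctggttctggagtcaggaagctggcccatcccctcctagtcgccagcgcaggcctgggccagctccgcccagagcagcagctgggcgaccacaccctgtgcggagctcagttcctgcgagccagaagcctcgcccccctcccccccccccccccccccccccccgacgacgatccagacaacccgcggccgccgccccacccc

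The other 3 measured ATP-Mg carriers did not pass. Slc25a25 read 5.88, 5.98, 5.97 and 5.95 with Gadd45a plasmid, against 5.76, 6.10, 6.01 and 6.21 with control plasmid, with overlap (log2 fold change -0.07, SE 0.10). Relative to Slc25a25 on the same array, Slc25a24 was 1.46 ± 0.09 log2 units with Gadd45a plasmid and 0.35 ± 0.22 with control plasmid (SD, n = 4 each), a difference of 1.12 (exact permutation p = 0.0286, adjusted over 9 pairs 0.0643). Slc25a23 read 5.42, 5.57, 5.47 and 5.29 with Gadd45a plasmid, against 5.69, 5.66, 5.61 and 5.79 with control plasmid, without overlap but outside the threshold (log2 fold change -0.25, SE 0.08, adjusted p = 0.0504). Slc25a41 had a change of -0.11 (SE 0.09). Slc25a24 was the only called member of these 4.

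Markers of other cells rose beside Slc25a24, whose transcript is not restricted to fibres. Of 7 macrophage markers 5 rose and 0 fell, among them Adgre1 (1.05), Cd68 (1.05) and C1qa (1.23), and their summed linear intensity was 1951 to 2484 with Gadd45a plasmid against 1098 to 1256 with control plasmid. Of 5 fibroblast markers 4 rose (summed intensity 3454 to 3809 against 3476 to 3571). Dcn, the brightest of these 5, did not pass but was lower without overlap (log2 fold change -0.19, adjusted p = 0.0563). Of 6 markers of satellite cells and myoblasts 2, Mymk (1.97) and Myog (0.99), rose (summed intensity 641 to 824 against 377 to 424). Pax7 (0.11), Myf5 (0.15), Myod1 (0.33) and Cdh15 (-0.09) did not pass. Endothelial markers went the other way, with 6 of 6 falling (930 to 965 against 1128 to 1327), and so did 1 of 3 Schwann cell markers (338 to 382 against 416 to 477). No marker was at 0, a value that this kind of array summary does not give, so this does not show that a cell type was present. The part of these cells in the rise of Slc25a24 was not tested.

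**Figure D3:**
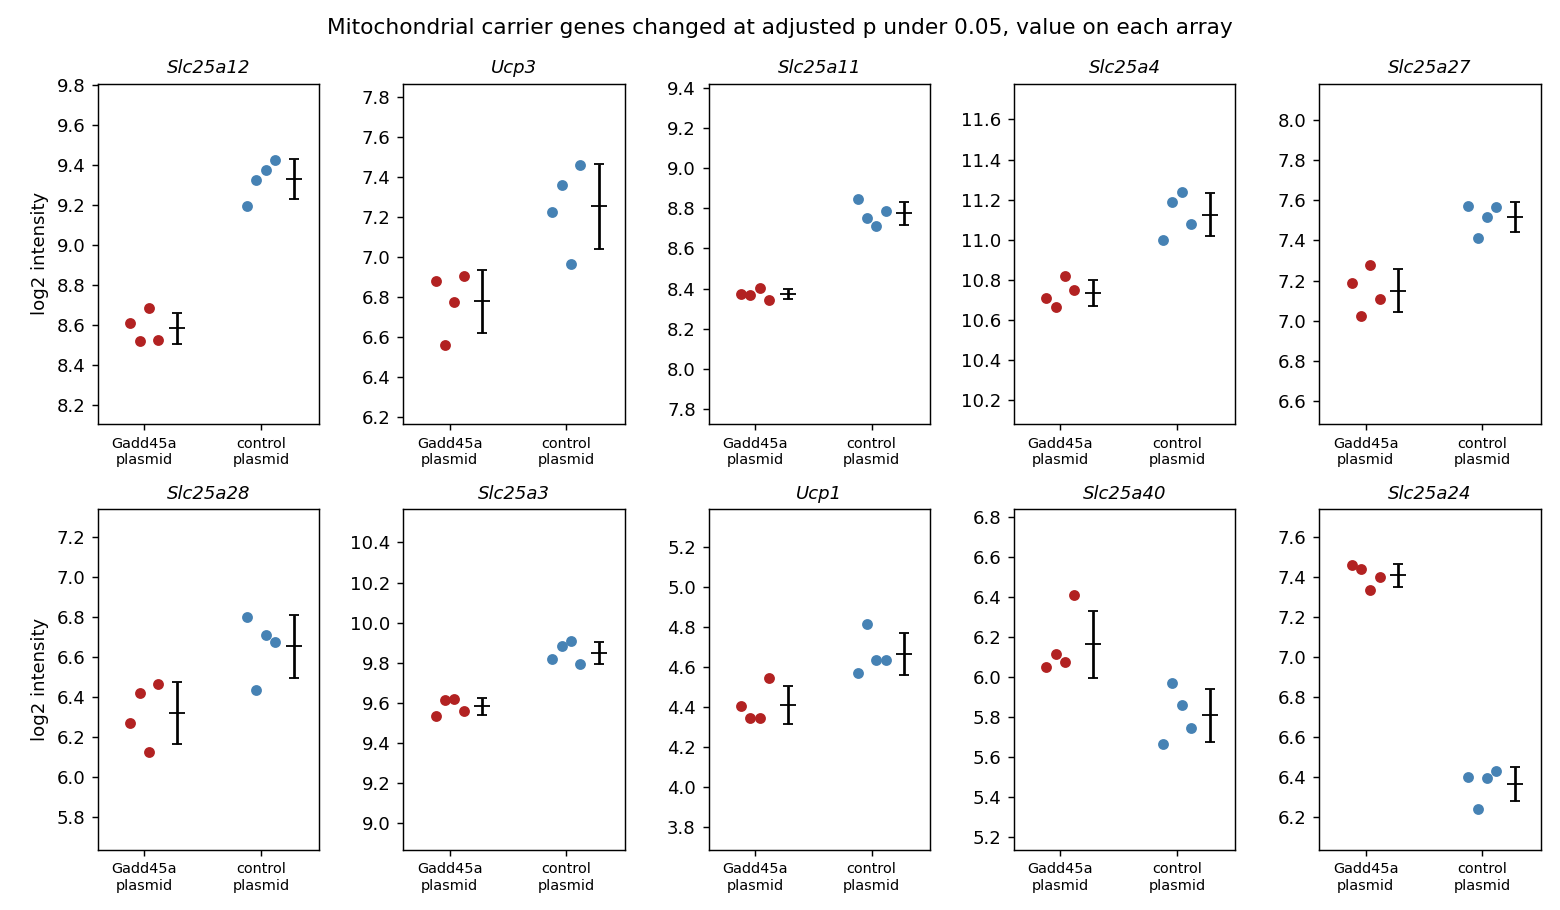
Log2 intensity on each array (points) of the 10 changed carrier genes, with mean and SD (bars beside the points), for 4 Gadd45a plasmid arrays (left in each panel) and 4 control plasmid arrays (right); each panel spans the same height in log2 units. The groups are separate for every gene but Slc25a28, and Slc25a24 and Slc25a12 show the widest gaps.

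Among the amino acid and glutathione carriers, 1 of 11 measured members rose and 1, Slc25a12, fell (18.2% changed, beside 21.1% of all probe sets). Slc25a40, a carrier of glutathione into the matrix, read 6.05, 6.12, 6.08 and 6.41 with Gadd45a plasmid, against 5.66, 5.97, 5.86 and 5.75 with control plasmid. The lowest Gadd45a array lay 0.08 log2 units above the highest control array (log2 fold change 0.35, SE 0.10, adjusted p = 0.0359). The call held only in the leave-out fits without Gadd45a 1 or without control 2, and the adjusted p reached 0.141 in the other 10. Slc25a39, its close relative with the same substrate, read 5.93, 5.88, 6.19 and 6.14 with Gadd45a plasmid, against 6.08, 6.03, 5.99 and 6.06 with control plasmid. These groups overlapped (log2 fold change -0.01, SE 0.08, adjusted p = 0.972). The difference between them within arrays, Slc25a39 minus Slc25a40, was -0.13 ± 0.17 with Gadd45a plasmid and 0.23 ± 0.17 with control plasmid (SD, n = 4 each; exact permutation p = 0.0571, adjusted over 9 pairs 0.103).

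The 9 members grouped as amino acid and glutathione carriers that did not pass all lay below 0, between -0.39 and -0.01, with overlapping groups. They were the ornithine carriers Slc25a2 (-0.39, SE 0.21) and Slc25a15 (-0.15), Slc25a44 for branched-chain amino acids (-0.27), Slc25a29 for basic amino acids (-0.26), Slc25a38 for glycine (-0.22), the glutamate carrier Slc25a22 (-0.15), Slc25a13, Slc25a48 (-0.08) and Slc25a39. Slc25a2 had the widest error of the family. It read 4.66, 4.78, 3.87 and 4.54 with Gadd45a plasmid, against 4.83, 4.56, 4.74 and 5.28 with control plasmid, with the lowest value on Gadd45a 3 and the highest on control 4.

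The di- and tricarboxylate carriers other than Slc25a11 did not pass. The dicarboxylate carrier Slc25a10, which exchanges malate or succinate for phosphate, read 5.80, 5.63, 5.71 and 5.77 with Gadd45a plasmid, against 5.89, 5.97, 5.52 and 5.63 with control plasmid (log2 fold change -0.03, SE 0.11). Slc25a11 minus Slc25a10 within arrays was 2.64 ± 0.08 with Gadd45a plasmid and 3.02 ± 0.19 with control plasmid (SD, n = 4 each), a difference of -0.38 (exact permutation p = 0.0286, adjusted over 9 pairs 0.0643). Slc25a10, unlike Slc25a11, was below the median brightness of all probe sets, where the array processing compresses changes. The citrate carrier Slc25a1 had a change of 0.01 (SE 0.12), and the oxodicarboxylate carrier Slc25a21 of -0.23 (SE 0.10). Slc25a34 read 5.88, 5.88, 5.78 and 5.92 with Gadd45a plasmid, against 6.16, 6.02, 5.91 and 6.11 with control plasmid, with a slight overlap (log2 fold change -0.18, SE 0.08). Slc25a35 read 5.69, 5.67, 5.64 and 5.83 with Gadd45a plasmid, against 5.89, 5.94, 6.29 and 5.94 with control plasmid. It lay just outside the threshold at -0.31 (SE 0.10, adjusted p = 0.0503), without overlap between groups.

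Of the 2 mitochondrial iron carriers, or mitoferrins, 1 fell (beside 10.3% of all probe sets). Slc25a28, the mitoferrin found in most tissues, read 6.27, 6.42, 6.12 and 6.46 with Gadd45a plasmid, against 6.80, 6.43, 6.71 and 6.67 with control plasmid. It is the changed member whose groups overlapped, control 2 lying below Gadd45a 4 (log2 fold change -0.33, SE 0.10, adjusted p = 0.0481). The call held only in the leave-out fits without control 2 or without both arrays numbered 2, with adjusted p up to 0.192 in the other 10, and was missed with median centring (0.0547) and with array weights (0.0537). Slc25a37, the mitoferrin best known from red cell precursors, read 6.88, 6.80, 7.22 and 7.01 with Gadd45a plasmid, against 6.86, 6.52, 6.95 and 6.88 with control plasmid, with overlap (log2 fold change 0.18, SE 0.12, adjusted p = 0.313). Slc25a37 minus Slc25a28 within arrays was 0.66 ± 0.31 with Gadd45a plasmid and 0.15 ± 0.09 with control plasmid (SD, n = 4 each), a difference of 0.51 (exact permutation p = 0.0286, adjusted over 9 pairs 0.0643). Of 3 measured erythroid markers Alas2 (-0.42) and Slc4a1 (-0.44) fell, with a summed intensity of 123 to 156 with Gadd45a plasmid against 161 to 193 with control plasmid.

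The mitochondrial carnitine/acylcarnitine carrier Slc25a20 read 7.35, 7.17, 7.36 and 7.16 with Gadd45a plasmid, against 7.32, 7.61, 7.56 and 7.33 with control plasmid. The groups overlapped (log2 fold change -0.20, SE 0.09, adjusted p = 0.156). Of its 4 measured partners in carnitine-dependent transport the carnitine acetyltransferase gene Crat fell by 0.53 (SE 0.07, adjusted p = 0.000829) and Cpt2, of the inner membrane, by 0.34 with overlap (missed in 10 leave-out fits, and with median centring at an adjusted p of 0.0787). Cpt1a, the outer membrane enzyme of liver and many non-muscle cells, rose by 0.37 (SE 0.09, adjusted p = 0.0201, missed in 5 leave-out fits), and the carnitine importer Slc22a5 did not pass (-0.11).

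Of the 7 cofactor and pyrimidine nucleotide carriers 0 passed in limma, and 3, Slc25a17, Slc25a33 and Slc25a16, had an unadjusted p under 0.05. In the same fit 6100 of all 16755 probe sets had an unadjusted p under 0.05. Slc25a17, the peroxisomal carrier of the family, read 6.74, 6.47, 6.79 and 6.80 with Gadd45a plasmid, against 6.22, 6.53, 6.52 and 6.20 with control plasmid (log2 fold change 0.33, SE 0.11, adjusted p = 0.0589). Both pyrimidine nucleotide carriers overlapped between groups. Slc25a33 read 5.61, 5.38, 5.42 and 5.47 with Gadd45a plasmid, against 5.86, 5.47, 6.00 and 5.82 with control plasmid (log2 fold change -0.32, SE 0.11). Slc25a36 read 6.11, 6.26, 6.04 and 6.52 with Gadd45a plasmid, against 5.92, 6.25, 5.62 and 6.57 with control plasmid (log2 fold change 0.14, SE 0.19). The within-array difference, Slc25a33 minus Slc25a36, changed by -0.46 and did not pass (exact permutation p = 0.229, adjusted over 9 pairs 0.294). The remaining values were -0.20 for Slc25a16, -0.17 for the coenzyme A carrier Slc25a42, -0.17 for the S-adenosylmethionine carrier Slc25a26 and -0.05 for Slc25a32, which carries folate and flavin cofactors. The last 3 members were the outer membrane protein Slc25a46 (0.06), Slc25a45 (0.09) and Slc25a47 (-0.16), which did not pass either, with 0 at an unadjusted p under 0.05.

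Around the threshold, the members just inside were Ucp1 (adjusted p = 0.0488) and Slc25a28 (0.0481), and those just outside were Slc25a35 (0.0503), Slc25a23 (0.0504) and Slc25a17 (0.0589). Groups did not overlap in 13 members, 11 lower (13.8% of all probe sets were lower without overlap) and 2 higher (13.1% of all probe sets). Besides 9 of the 10 changed members these were Slc25a35, Slc25a23, Slc25a21 and Slc25a16. Their gaps were 0.06, 0.04, 0.002 and 0.02 log2 units in that order, and all but Slc25a16 were dim probe sets. At a change of at least 1.5-fold, Slc25a12 and Slc25a24 remained (4.88% of members, beside 5.32% of all probe sets).

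Direction went with brightness. Of the 15 members below the median brightness of all probe sets 14 lay below 0 (93.3%, beside 73.0% of all dim probe sets). Of these 15, 1 was called (6.67%, beside 12% of all dim probe sets). Of the 26 brighter members 17 lay below 0 (65.4%, beside 47.4% of all bright probe sets), 7 fell (26.9%, beside 12.8%) and 2 rose (7.69%, beside 17.5%). The part of intensity in these directions was not tested. Complex I subunits (gene symbols beginning with Ndufa, Ndufb, Ndufc, Ndufs or Ndufv) are another group of the inner membrane. Of these, 14 of 27 genes were lower (51.9%, beside 10.3% of all probe sets) and 0 higher, with a median of -0.31. Mitochondrial ribosomal protein genes had 7 of 68 lower (10.3%, the share of all probe sets) and 2 higher (2.94%, beside 10.8%). Their median was -0.06, beside -0.06 for all probe sets. The carriers' median of -0.17 lay between those of the 2 groups, a difference that was not tested.

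**Figure D4:**
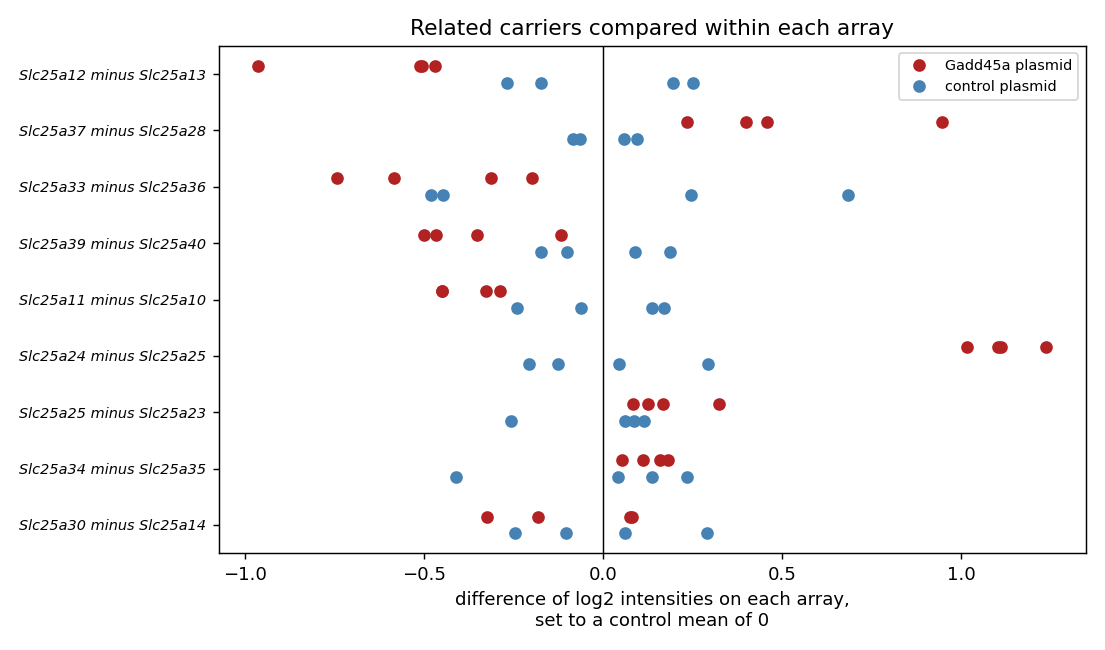
Difference between the log2 intensities of 2 related carriers on each array (horizontal axis, log2 units, set to a mean of 0 over the control arrays) for the 9 pairs compared, with Gadd45a plasmid arrays in red above control plasmid arrays in blue. In 4 pairs the groups do not overlap: Slc25a12 with Slc25a13, Slc25a37 with Slc25a28, Slc25a11 with Slc25a10 and Slc25a24 with Slc25a25.

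Of the 9 pairs of related carriers 4 reached an exact p of 0.0286, and none passed 0.05 after adjustment over the pairs (0.0643 each). The pairs that did not reach it included Slc25a25 and Slc25a23 (difference 0.17, exact permutation p = 0.0857), Slc25a34 and Slc25a35 (0.13, exact permutation p = 0.600) and Slc25a30 and Slc25a14 (-0.09, exact permutation p = 0.600).

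The promoter windows were searched on both strands for 5 motifs, of which NRF1 and GABP and the estrogen-related receptors (ERR) are known regulators of mitochondrial genes. RefSeq windows, the first listed for each gene, were matched for 32 of the 41 members. GABP was searched as CCGGAAG and was found in 5 of the 32 windows (15.6%), Slc25a4 and Slc25a3 included, beside 7.05% of 27025 promoters. In Slc25a4 it lay 130 to 124 bases before the start, and 2 CCAAT boxes lay nearer to it, while Slc25a11 held 1 CCAAT box 82 to 78 bases before the start. CCAAT was found in 16 of 32 windows (50.0%, beside 34.5%), the NRF1 core TGCGCA in 4 (12.5%, beside 6.66%), those of Slc25a3, Slc25a21, Slc25a36 and Ucp1, the ERR half-site AAGGTCA in that of Slc25a34 alone (3.12%, beside 4.05%), and TATAAA in 0 (beside 13.0%). Slc25a12 and Slc25a24 held none of the 5. A match here is a description of the letters, and absence says only that these letters are not in the window.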

How the data were processed

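The deposited table holds a log2 intensity for each probe set on each array. Per the submitters' processing notes, GCOS, RMA and the mouse build mm9 were used, with no versions. RMA corrects background, quantile-normalizes arrays and summarises probes, which compresses changes of dim probe sets. Of 16755 probe sets 14996 had 1 symbol, 1019 several and 740 none listed. Carriers with no single-symbol probe set, such as Slc25a5 and Ucp2, were not analysed here, which left out 3 of 12 planned pairs.

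The tests used limma 3.58.1 in R 4.3.3 on the deposited values, unblocked and two-sided, with Benjamini-Hochberg adjustment. Tables were made with Python 3.11.15. Single pair differences used exact permutation over 70 labellings. Members and lists were chosen with earlier results of these data known. All members are named; values per array are given for changed members, the 12 largest changes and compared pairs, and names for up to 4 changed genes per partner list, by a rule written at the start. Values per array of Slc25a20, Got1, Ckmt2 and Vdac1, and the names of Slc6a8 and of partner genes that did not pass, were added after they were seen. The fit was tested on simulated data. RefSeq sequences are from GRCm38.p6.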

Additional observations from a re-analysis of the deposited data

Results flagged for a closer look

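Of 82 groups of 4 arrays examined (41 members, 2 groups each), 2 held an array far from the other 3, and chance alone gives such a gap in about 0.05 of groups. Both were control 3. Slc25a35 read 6.29 on control 3, against 5.89 to 5.94 on the other control arrays. Without control 3 its change was -0.22 (limma adjusted p = 0.0767), beside -0.31 with all arrays. Slc25a1, the citrate carrier, read 5.57 on control 3, against 6.01 to 6.08 on the other control arrays.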

How the results depend on the processing

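Under the 9 other ways of fitting or scaling, the count of changed members stayed within 1.5 times of 10, and directions of the 10 changed members held in these and in the 12 leave-out fits, except that Ucp1 was not tested in the fit on brighter probe sets. Leaving out arrays gave 4 to 9 changed members (3 to 8 lower, 1 to 2 higher), 1876 to 3174 changed probe sets, 9 to 15 changed partner genes and 0 pairs, because with 7 arrays the exact p cannot go below 0.0571. At an adjusted p of 0.01 there were 5 changed members (4 lower, 1 higher), 1630 probe sets and 9 partner genes, and with at least a 1.5-fold change 2 members (1 lower, 1 higher), 892 probe sets and 5 partner genes. The full fit had 3542 probe sets, 16 partner genes and 4 pairs. Deviations of same-numbered arrays from their group means correlated at 0.05 to 0.10, none above 0.1. Each of the 8 arrays correlated best with its own number, a hint of pairing from the data. The labels give left and right muscles but do not say whether those of the same number shared a mouse. The unblocked fit was kept as the main one because the labels state no shared mouse, and these correlations do not settle it. With the replicate block the changed members were 6 lower and 1 higher (Slc25a28, Slc25a40 and Ucp1 had adjusted p of 0.0864, 0.0568 and 0.0858) of 3171 changed probe sets, 13 partner genes changed (Slc6a8, Mtch1 and Cpt2 had 0.0523, 0.0864 and 0.0790), and 0 pairs reached 0.05, since sign flips of 4 differences give no p below 0.125. Slc25a12, Slc25a11 and Slc25a24 were called in all 21 alternative fits. The number of arrays and the dimness of 15 members limit what small changes can be seen.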
